A study of Mus musculus with 12 samples.

Results

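The genes described here are those whose transcript level responded to the loss of maternal Pan2 differently at the 2 embryo stages sampled. They were chosen by the interaction of genotype and stage over all 12 libraries, that is, the difference between KO and WT at L2C minus the difference between KO and WT at PN3, on the log2 scale. Of 55291 genes in the deposited table, 21160 had enough counts to be tested, and 1046 of these (4.94%) passed edgeR's quasi-likelihood test with an adjusted p (Benjamini-Hochberg) below 0.05. The interaction was positive for 392 genes (1.85% of those tested), which sat higher in KO relative to WT at L2C than at PN3, and negative for 654 genes (3.09%). With upper quartile scaling, which shifted the median of all genes upwards by 0.23 on the log2 scale, the split was 695 positive and 443 negative, so the balance of the directions depended on the scaling. At the edge of the threshold, Txn2 and Mrps10 lay just inside (adjusted p = 0.05) and A130051J06Rik (0.05008) and Dpep1 (0.0502) just outside.

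The 12 Smart-seq2 libraries hold poly(A) RNA of mouse embryos, 3 for each genotype (WT, KO) at each stage (labelled PN3 and L2C). KO stands for embryos with a maternal Pan2 deletion, and the series design speaks of zygotes and 2-cells for the stages, while the extraction protocol in the labels speaks of oocytes in place of zygotes. The sources used here do not give the strain, the promoter of any Cre, the deleted part of Pan2, the paternal genotype, the embryos' age in hours or the number of embryos per library. Nor do the labels say that replicates are separate collections, and a p-value then reflects spread among libraries that may be technical.

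PAN2 is the catalytic subunit of the PAN2-PAN3 complex, a deadenylase that trims the poly(A) tails of cytoplasmic mRNA, while the CCR4-NOT complex carries out much of the later shortening that precedes decay. The mouse egg is loaded with maternal mRNA that is largely cleared between fertilization and the 2-cell stage, and transcription from the embryo's own genome starts weakly in the zygote and strongly in the 2-cell embryo. Capture by oligo(dT) relies on a tail, and the levels below are those of RNA captured in this way. A change in tail length thus cannot be told apart from a change in amount. An annotated ribosomal RNA took 4.35% to 34.9% of the counts of a library, so capture was not confined to mRNA. Likewise, fewer cells and less RNA per cell cannot be told apart in bulk samples.

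Total counts ranged from 14453592 to 28624766 per library, and 3 counts in a library equal 0.109 to 0.171 CPM (counts scaled to a library of 1000000). An annotated ribosomal RNA (CT010467.1) took 34.9% and 32.2% of the counts in replicate 2 of PN3 in WT and KO, against 4.35% to 5.63% in the other PN3 libraries, and 24.0% and 34.0% in replicate 3 of L2C, against 12.7% to 13.9% in the other L2C libraries. Replicates 1 and 2 of each L2C group were nearer one another than were other replicates of a group, with a chi-square of 3.39 (WT) and 3.70 (KO) per gene against 17.8 to 718 for the other pairs, more than sampling noise gives. The summed level of 7 egg and zygote markers was 11858 to 19994 CPM at PN3 and 3221 to 6238 CPM at L2C, and that of 5 late 2-cell markers 18.3 to 40.3 CPM at PN3, 823 to 1838 CPM in WT L2C and 321 to 934 CPM in KO L2C. Of the other cell types looked for, 17 granulosa or cumulus markers summed to 21.4 to 58.1 CPM, 16 sperm markers to 93.9 to 151 CPM, and 16 oviduct, stroma or blood markers to 25.4 to 76.4 CPM at PN3 and 167 to 269 CPM at L2C. Most of these markers had counts. At 0 in WT PN3, KO PN3, WT L2C and KO L2C were 2, 4, 2 and 3 granulosa or cumulus markers, 7, 8, 1 and 3 sperm markers, and 4, 3, 2 and 2 of the last list. Amh and Inhbb (granulosa) and Acr, Izumo1 and Tnp1 (sperm) were at 0 in both PN3 groups but had counts in both L2C groups. Fshr and Inha were at 0 in both L2C groups but had counts in WT PN3. The globin genes Hbb-bs and Hbb-bt were at 0 in both PN3 groups and KO L2C but had counts in WT L2C. The lower sum of late 2-cell markers in KO L2C stands beside every result at that stage, and its part in them was not tested.

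The targeted gene itself differed between the stages. Pan2 (chromosome 10, 128303335 to 128321358, mm10) stood at 189, 173 and 159.6 CPM in WT and 1.58, 6.67 and 4.52 in KO at PN3. At L2C, Pan2 stood at 62.2, 60.1 and 69.1 CPM in WT and 15.3, 17.8 and 34.5 in KO. Every KO library lay below every WT library at both stages, and the gap was wide at PN3 and narrower at L2C, where the level had fallen in WT and risen in KO. The KO effect was -5.36 on the log2 scale at PN3 (SE 0.49, edgeR adjusted p = 0.00128) and -1.50 at L2C (SE 0.41, edgeR adjusted p = 0.0255), which made an interaction of 3.86 (SE 0.59, edgeR adjusted p = 0.00615). The counts cannot tell maternal from paternal Pan2 transcripts.

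The number of genes called rested on how the L2C libraries were counted. With the close replicates 1 and 2 of each L2C group summed to 1 sample, edgeR called 0 of 22642 genes (3049 had an unadjusted p under 0.05), and without the 4 libraries rich in ribosomal RNA it called 6057 of 21684. Libraries of 1 stage that share a number deviated in the same direction. So did replicates 1 and 3 at PN3 and 1 and 2 at L2C across the genotypes. With the replicate number as a block within stages the count was 3772 (1718 positive, 2054 negative), while DESeq2 without a block called 2741. Leaving out 1 library gave 395 genes without WT PN3 replicate 1 and 520 without its replicate 3, and 486 and 481 for the same replicates of KO PN3. It gave 264 and 259 for replicates 1 and 2 of WT L2C, and 295 and 278 for those of KO L2C. Each of the 1046 genes kept the sign of its interaction in all 22 alternative fits in which it was tested. The fit with the L2C pairs summed was among them. The genes were chosen for a strong interaction in these same libraries, so a kept sign was nearly fixed by the choice and is no support for the calls.

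The called genes were sorted by the unadjusted p of their KO effect at each stage, with 0.05 as the limit. For 691 genes (66.1%) the effect was past the limit at L2C only, here called appeared, with 273 positive and 418 negative. For 286 genes (27.3%) it was past the limit at both stages with opposite signs, here called turned around, with 89 positive and 197 negative. For 56 genes (5.35%) it was past the limit at PN3 only, here called vanished, with 24 positive and 32 negative. A further 12 genes were past the limit at both stages with the same sign and a larger effect at L2C, and Pan2 was the 1 gene whose effect kept its sign and shrank. These classes use the contrasts that make up the interaction and are descriptions. Over all genes tested, 28 (0.132%) were called for the KO effect at PN3, 19 higher (0.0898%) and 9 lower (0.0425%) in KO. The PN3 count was 566 with the replicate block within stages, 538 with DESeq2, 2029 without the libraries rich in ribosomal RNA and 1 with the L2C pairs summed. With 1 library left out it ran from 1 (without WT PN3 replicate 3) to 55 (without KO L2C replicate 3), and only without replicate 2 of WT or KO PN3 (21 and 35) was it within 1.5 times of 28. At L2C 3593 (17%) were called, 1531 higher (7.24%) and 2062 lower (9.74%), and 10.1% and 31.5% of all genes were past the unadjusted limit at PN3 and L2C. The L2C count was 6815, 5364, 9797 and 351 in the same 4 fits, and 1455, 1427, 1775 and 1733 without replicates 1 and 2 of WT L2C and of KO L2C. The effect at PN3 told little of that at L2C, with a Pearson correlation of 0.0407 and a Spearman correlation of 0.0599 across the 21160 genes, which share their libraries and are not independent.

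**Figure D1:**
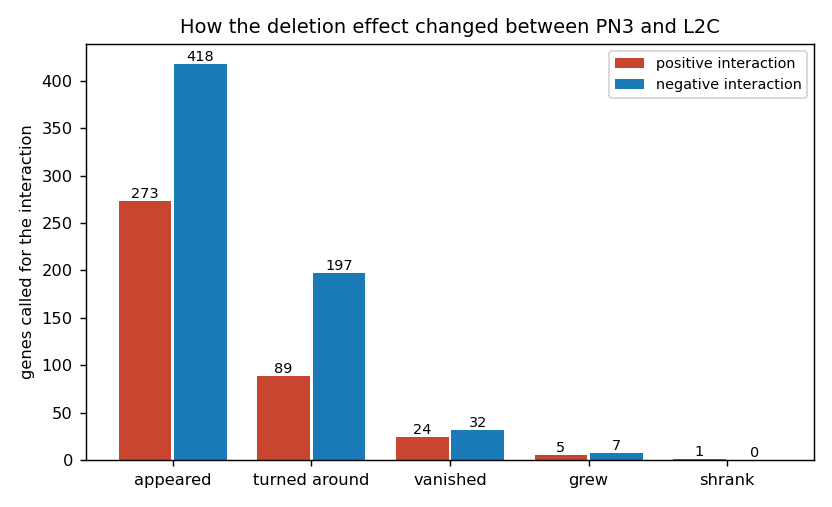
Number of genes called for the interaction (vertical axis) in each class of change (horizontal axis), split by the sign of the interaction. Effects that appeared at L2C made up 273 positive and 418 negative genes, and effects that turned around 89 and 197.

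**Figure D2:**
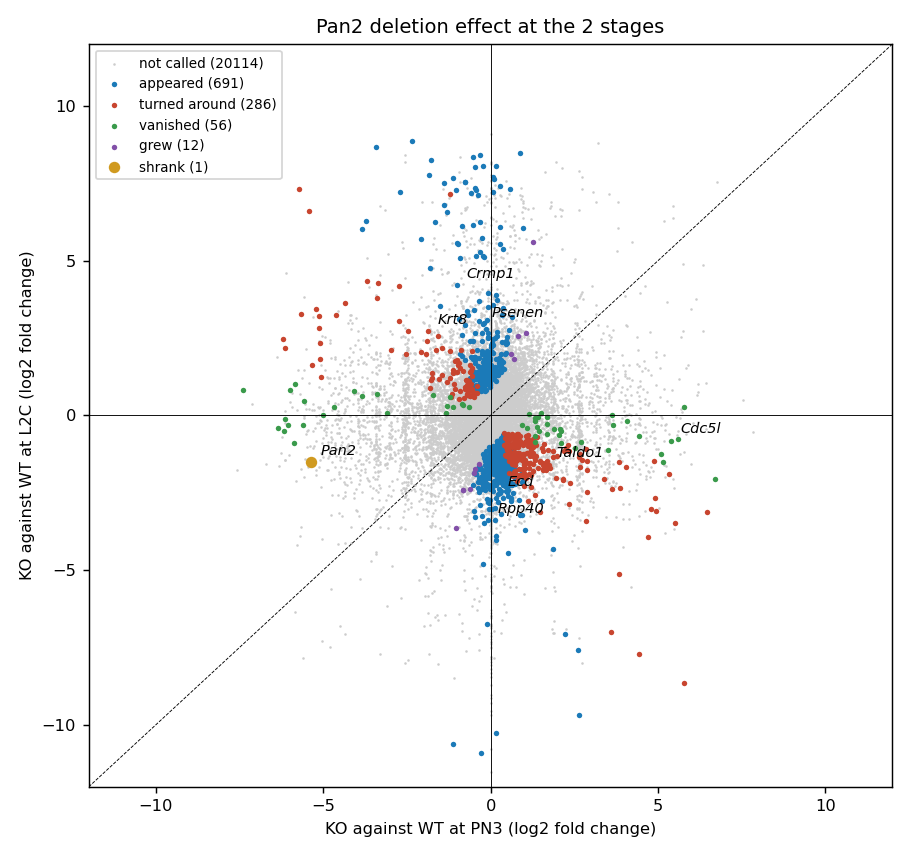
KO effect at L2C (vertical axis) against the KO effect at PN3 (horizontal axis), both log2 fold changes, 1 point per gene tested and coloured by class; the dashed line marks equal effects. Genes that appeared lie along the vertical axis, genes that turned around lie mostly in the lower right, with 197 of 286 higher at PN3 and lower at L2C in KO, and Pan2 lies in the lower left.

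Among the 273 genes that appeared as higher in KO at L2C were Grm4, a metabotropic glutamate receptor, Psenen, a subunit of gamma-secretase, Gcc2, a golgin of the trans-Golgi network, and Samd10. Their WT level fell steeply between the stages, and their KO level fell less or was not called between them. Grm4 (chromosome 17, 27422387 to 27521403) stood at 145, 128 and 139 CPM in WT and 146, 143 and 160.0 in KO at PN3. At L2C, Grm4 stood at 14.4, 13 and 10.95 CPM in WT and 71.7, 77.95 and 65.6 in KO. Its WT and KO libraries overlapped at PN3, and at L2C every KO library lay above every WT library. The KO effect was 0.13 at PN3 (SE 0.18) and 2.49 at L2C (SE 0.19, edgeR adjusted p = 7.97e-05), with an interaction of 2.36 (edgeR adjusted p = 0.00186).

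Psenen (chromosome 7, 30561863 to 30563627) showed the same order, with 426, 368 and 443 CPM in WT and 393, 286 and 375 in KO at PN3. At L2C, Psenen stood at 43.8, 33.03 and 19.4 CPM in WT and 276, 288 and 181 in KO. In WT it fell by 3.68 on the log2 scale, and its KO libraries at L2C all lay above the WT libraries (interaction 3.18, SE 0.41, edgeR adjusted p = 0.00312). Exons of U2af1l4 and Gm49396 overlap it, and the sources used here do not give the strand setting, so reads may be shared. Gcc2 (chromosome 10, 58255497 to 58305599) stood at 38.01, 40.7 and 42.9 CPM in WT and 39.6, 37.7 and 38.6 in KO at PN3. At L2C, Gcc2 stood at 3.54, 3.79 and 5.17 CPM in WT and 23.9, 20.6 and 25.8 in KO (interaction 2.56, SE 0.32, edgeR adjusted p = 0.00296). Samd10 (chromosome 2, 181595218 to 181599212) stood at 105, 87.9 and 91.7 CPM in WT and 69.3, 90.1 and 77.1 in KO at PN3. At L2C, Samd10 stood at 15.2, 17.2 and 12.97 CPM in WT and 59.95, 63.5 and 68.5 in KO (interaction 2.35, SE 0.28, edgeR adjusted p = 0.00245). For both, the L2C libraries of the genotypes were well apart and the PN3 libraries overlapped.

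The remaining named genes of this kind were Sytl4 and Crmp1. Sytl4, a Rab effector of secretory granules on the X chromosome, ranged between 210.0 and 227 CPM in WT and 191 and 202 CPM in KO at PN3, and between 19.1 and 22.4 CPM in WT and 49.1 and 83.1 CPM in KO at L2C (interaction 1.93, SE 0.30, edgeR adjusted p = 0.00616). Crmp1, a cytosolic phosphoprotein best known from neurons, was low at PN3 and ranged between 2.93 and 7.49 CPM in WT and 1.38 and 4.15 CPM in KO at PN3, and between 0.463 and 1.39 CPM in WT and 9.48 and 22.3 CPM in KO at L2C (interaction 5.21, SE 0.84, edgeR adjusted p = 0.00655). Sytl4 fell in both genotypes and Crmp1 fell in WT and rose in KO. Over the 273 genes the median KO effect was -0.19 at PN3 and 1.62 at L2C, and the median change between the stages was -2.59 in WT and -0.38 in KO.

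Among the 418 genes that appeared as lower in KO at L2C, the named ones include factors of transcription, tRNA and rRNA production and translation. Usp22, the deubiquitinase of the SAGA complex (chromosome 11, 61151785 to 61175055), stood at 7.97, 10.6 and 10.3 CPM in WT and 10.3, 11.6 and 15.4 in KO at PN3. At L2C, Usp22 stood at 87.9, 89.1 and 100.4 CPM in WT and 20.04, 14.5 and 9.53 in KO. It rose between the stages in WT and was not called between them in KO, where all L2C libraries lay below the WT libraries. The KO effect was 0.37 at PN3 (SE 0.28) and -2.65 at L2C (SE 0.29, edgeR adjusted p = 0.000454), with an interaction of -3.02 (edgeR adjusted p = 0.00312).

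Rpp40, a subunit of RNase P and RNase MRP (chromosome 13, 35893472 to 35906359), stood at 4.95, 3.75 and 6.43 CPM in WT and 5.15, 5.83 and 3.47 in KO at PN3. At L2C, Rpp40 stood at 72.3, 74.3 and 50.3 CPM in WT and 8.39, 5.76 and 4.86 in KO (interaction -3.30, SE 0.45, edgeR adjusted p = 0.0036). Polr1e, a subunit of RNA polymerase I (chromosome 4, 45018583 to 45036565), stood at 14.04, 10.05 and 13.8 CPM in WT and 17.9, 13.3 and 15.9 in KO at PN3. At L2C, Polr1e stood at 155, 151 and 101 CPM in WT and 25.4, 31.9 and 17.5 in KO (interaction -2.75, SE 0.39, edgeR adjusted p = 0.00378). Both rose between the stages in WT, by 3.70 and 3.42 on the log2 scale, whereas their change in KO (0.39 and 0.67) did not pass the test. Exons of Gm48746 overlap Rpp40. Ccdc124, a ribosome-binding protein, ranged between 18.98 and 22.3 CPM in WT and 19.1 and 19.4 CPM in KO at PN3, and between 105 and 127 CPM in WT and 26.8 and 32.1 CPM in KO at L2C (interaction -1.92, SE 0.27, edgeR adjusted p = 0.00369).

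Other genes of this class fell less or were not called between the stages in WT and fell in KO. Ecd, a cell cycle and splicing regulator (chromosome 14, 20319852 to 20348121), stood at 162, 139 and 167 CPM in WT and 189, 174 and 188 in KO at PN3. At L2C, Ecd stood at 74.2, 85.9 and 71.8 CPM in WT and 14.8, 14.1 and 11.2 in KO. At PN3 the KO libraries lay slightly above the WT libraries, and at L2C they lay far below them (interaction -2.76, SE 0.27, edgeR adjusted p = 0.00108). Med12, a subunit of the Mediator kinase module on the X chromosome (chromosome X, 101274030 to 101297465), stood at 8.62, 12.6 and 9.31 CPM in WT and 10.6, 15.1 and 12.2 in KO at PN3. At L2C, Med12 stood at 14, 13.7 and 8.94 CPM in WT and 1.54, 1.62 and 0.902 in KO. Its change between the stages was not called in WT, and its KO libraries at L2C lay far below all others (interaction -3.48, SE 0.49, edgeR adjusted p = 0.00369). Exons of Gm21986 overlap it. Over the 418 genes the median KO effect was 0.20 at PN3 and -1.58 at L2C, and the median change between the stages was 1.86 in WT and -0.14 in KO.

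The effect turned around from higher to lower in KO for 197 genes. Taldo1, transaldolase of the pentose phosphate pathway (chromosome 7, 141392199 to 141402968), had the lowest interaction p of these and stood at 21.4, 16.5 and 19.9 CPM in WT and 59.7, 54.7 and 72.3 in KO at PN3. At L2C, Taldo1 stood at 109, 113 and 91.1 CPM in WT and 35.6, 36.6 and 32.99 in KO. The KO libraries lay above all WT libraries at PN3 and below all of them at L2C, and so the stages differed in opposite directions, up in WT and down in KO. The KO effect was 1.69 at PN3 (SE 0.20, edgeR adjusted p = 0.0122) and -1.58 at L2C (SE 0.20, edgeR adjusted p = 0.000722), with an interaction of -3.27 (SE 0.29, edgeR adjusted p = 0.000771).

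Dhx8, an RNA helicase that releases spliced mRNA from the spliceosome (chromosome 11, 101732919 to 101767358), stood at 35.8, 32.7 and 33.7 CPM in WT and 75.01, 55.5 and 75.2 in KO at PN3. At L2C, Dhx8 stood at 153, 158 and 159.9 CPM in WT and 53.6, 55.1 and 45.02 in KO (interaction -2.62, SE 0.27, edgeR adjusted p = 0.00161). Its WT level rose between the stages from below the KO libraries to above them, and its KO change (-0.42) was not called. Abt1, a nucleolar protein whose yeast counterpart acts in pre-rRNA processing (chromosome 13, 23418361 to 23423866), stood at 5.09, 5.66 and 5.25 CPM in WT and 9.05, 11.2 and 12.4 in KO at PN3. At L2C, Abt1 stood at 115, 120.5 and 83.6 CPM in WT and 31.8, 32.6 and 33.2 in KO (interaction -2.74, SE 0.31, edgeR adjusted p = 0.00186). Uspl1, a SUMO protease, ranged between 14.6 and 14.7 CPM in WT and 27.5 and 36.4 CPM in KO at PN3, and between 189.9 and 217 CPM in WT and 85.1 and 93.6 CPM in KO at L2C (interaction -2.29, SE 0.26, edgeR adjusted p = 0.00186), and its exons overlap Hmgb1. Abt1 and Uspl1 rose between the stages in both genotypes and rose less in KO.

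For 7 of the 286 genes that turned around the KO effect was called at both stages after adjustment, and in each of the 7 it went from higher in KO at PN3 to lower at L2C. They are named here after their values were seen: Taldo1, Uspl1, Dppa5a, Elob, Sertad1, Tmem159 and 2310040G24Rik. Dppa5a, a KH-domain protein of early embryos and pluripotent cells (chromosome 9, 78367052 to 78368177), stood at 41.7, 43.4 and 47.6 CPM in WT and 99.7, 115 and 134 in KO at PN3. At L2C, Dppa5a stood at 940.2, 985 and 1000.3 CPM in WT and 629.7, 633 and 533 in KO (interaction -2.10, SE 0.26, edgeR adjusted p = 0.00296). Elob, elongin B (chromosome 17, 23824738 to 23829136), stood at 1.13, 2.17 and 1.14 CPM in WT and 4.34, 5.95 and 3.903 in KO at PN3. At L2C, Elob stood at 316, 309.6 and 291 CPM in WT and 88.7, 87 and 111 in KO (interaction -3.36, SE 0.38, edgeR adjusted p = 0.00186). Both rose in both genotypes between the stages, from a higher start and to a lower end in KO. Elob was at most 5.95 CPM at PN3, and its exons overlap Srrm2.

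Sertad1, 2310040G24Rik and Tmem159 were also low at PN3. Sertad1, a transcriptional coregulator, stood at 0.4002, 0.476 and 0.437 CPM in WT PN3 and 2.03, 4.04 and 2.14 CPM in KO PN3, and ranged from 137 to 189 CPM in WT L2C and from 50.4 to 93.0 CPM in KO L2C. 2310040G24Rik had 13 counts in the WT PN3 group and 89 in the KO PN3 group, and 6611 and 2885 counts at L2C. Tmem159, a protein of lipid droplets, ranged between 2.66 and 3.02 CPM in WT and 8.86 and 12.3 CPM in KO at PN3, and between 16.4 and 20.5 CPM in WT and 6.37 and 10.2 CPM in KO at L2C. Their interactions were -3.97, -3.94 and -3.01 (edgeR adjusted p = 0.00291, 0.00186 and 0.0036).

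The opposite turn, from lower to higher in KO, was found for 89 genes. Ttk, a kinase of the spindle assembly checkpoint (chromosome 9, 83834689 to 83872389), stood at 189, 169 and 191 CPM in WT and 122, 106 and 129 in KO at PN3. At L2C, Ttk stood at 42.8, 51.4 and 34.3 CPM in WT and 159, 147 and 91.1 in KO. The KO libraries lay below the WT libraries at PN3 and above them at L2C, where the third KO library was the lowest of the KO group. Car9, a carbonic anhydrase of the cell surface (chromosome 4, 43506966 to 43513729), stood at 102, 65.2 and 93.2 CPM in WT and 44.7, 35.4 and 38.9 in KO at PN3. At L2C, Car9 stood at 13.7, 14.9 and 11.9 CPM in WT and 42.1, 41.1 and 28.8 in KO. Its KO level was not called between the stages, while the WT level fell from above the KO libraries to below them (interaction 2.59, SE 0.34, edgeR adjusted p = 0.00312).

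Igfbp7, an insulin-like growth factor binding protein (chromosome 5, 77349240 to 77408041), stood at 15.9, 19.7 and 17.6 CPM in WT and 4.097, 6.39 and 3.52 in KO at PN3. At L2C, Igfbp7 stood at 1.33, 1.62 and 1.29 CPM in WT and 7.65, 5.93 and 3.26 in KO (interaction 3.91, SE 0.55, edgeR adjusted p = 0.00369). Krt8, a keratin of simple epithelia and of the later trophectoderm (chromosome 15, 101996698 to 102004482), stood at 1.31, 1.48 and 0.962 CPM in WT and 0.446, 0.224 and 0.333 in KO at PN3. At L2C, Krt8 stood at 2.31, 2.54 and 2.17 CPM in WT and 11.8, 12.6 and 22.4 in KO (interaction 4.60, SE 0.60, edgeR adjusted p = 0.00312). Krt8 was near 1 CPM or less at PN3 in both genotypes and rose in KO at L2C. Igfbp7 shares exonic positions with Polr2b, Car9 with Gm12454 and Krt8 with Gm36026. For Ttk the KO effect was -0.62 at PN3 (SE 0.23) and 1.63 at L2C (edgeR adjusted p = 0.00122), with an interaction of 2.25 (edgeR adjusted p = 0.00504). Of the 89 genes, 61 were called for the KO effect at L2C and 0 at PN3 after adjustment, where 89 had an unadjusted p under 0.05.

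**Figure D3:**
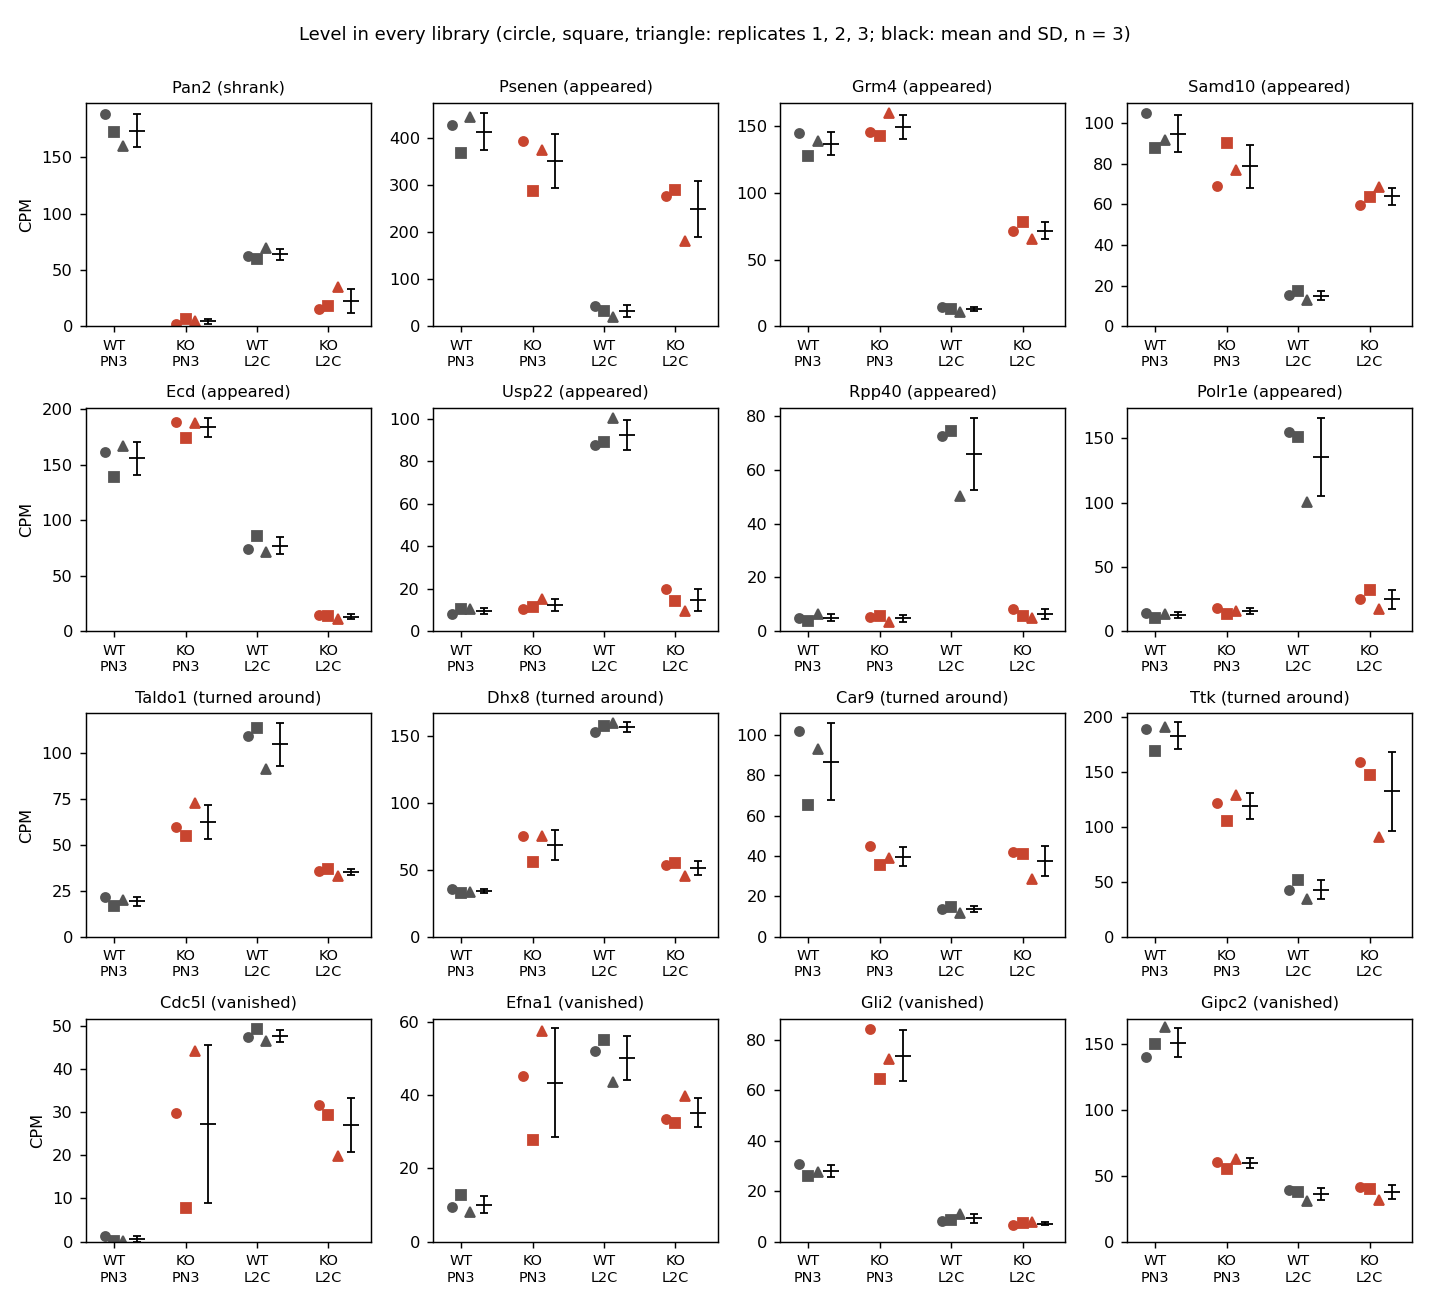
Level in CPM (vertical axis, from 0) of 16 genes in each of the 12 libraries, by group (horizontal axis; grey WT, red KO; circle, square and triangle for replicates 1, 2 and 3; black bars, mean and SD, n = 3). Taldo1 and Dhx8 cross from higher to lower in KO between PN3 and L2C, and Car9 and Ttk cross the other way.

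Of the 56 genes whose effect was past the limit at PN3 only, 13 were called there after adjustment, 8 higher and 5 lower in KO. Cdc5l, a core splicing factor of the Prp19 complex (chromosome 17, 45391884 to 45433737), stood at 1.38, 0.212 and 0.262 CPM in WT and 29.7, 7.85 and 44.2 in KO at PN3. At L2C, Cdc5l stood at 47.3, 49.1 and 46.3 CPM in WT and 31.7, 29.4 and 19.9 in KO. It was low in WT at PN3 and higher in KO, where the second library, rich in ribosomal RNA, was lowest, and at L2C the KO libraries lay below the WT libraries. The KO effect was 5.39 at PN3 (edgeR adjusted p = 0.0139) and -0.82 at L2C (SE 0.58), with an interaction of -6.20 (edgeR adjusted p = 0.00491).

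Efna1, the ligand ephrin-A1 (chromosome 3, 89271733 to 89281142), stood at 9.46, 12.6 and 8.09 CPM in WT and 45.1, 27.7 and 57.4 in KO at PN3. At L2C, Efna1 stood at 51.9, 55.1 and 43.5 CPM in WT and 33.3, 32.5 and 39.7 in KO (interaction -2.62, SE 0.40, edgeR adjusted p = 0.00573). Gli2, a transcription factor of Hedgehog signalling (chromosome 1, 118834132 to 119053619), stood at 30.7, 26.1 and 27.4 CPM in WT and 84.4, 64.3 and 72.3 in KO at PN3. At L2C, Gli2 stood at 8.05, 8.51 and 11.2 CPM in WT and 6.45, 7.43 and 7.62 in KO (interaction -1.76, SE 0.31, edgeR adjusted p = 0.01). At PN3 the KO libraries of both genes lay above the WT libraries, and at L2C below them by a gap that did not pass the test. Efna1 rose between the stages in WT and was not called in KO, and Gli2 fell in both. The call for Gli2 was lost without KO L2C replicate 1 or 2 (edgeR adjusted p up to 0.0573). Tpm3-rs7, a copy related to tropomyosin 3 whose reads may be shared with the parent gene, ranged between 0.3498 and 0.952 CPM in WT and 3.205 and 10.1 CPM in KO at PN3, and between 18.04 and 19.9 CPM in WT and 14.8 and 25.7 CPM in KO at L2C (interaction -3.59, SE 0.66, edgeR adjusted p = 0.0116).

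Lower in KO at PN3 was Gipc2, a PDZ-domain protein (chromosome 3, 152093533 to 152166230), which stood at 140.5, 150.3 and 163 CPM in WT and 60.7, 55.5 and 62.5 in KO at PN3. At L2C, Gipc2 stood at 39.6, 37.8 and 31.05 CPM in WT and 41.8, 39.8 and 31.7 in KO. The PN3 groups were far apart and the L2C groups overlapped, with a KO effect of -1.34 at PN3 (edgeR adjusted p = 0.0154) and 0.06 at L2C (SE 0.19), and an interaction of 1.41 (edgeR adjusted p = 0.0143). Exons of D630002J18Rik and Gm31881 overlap it. Ajuba, a LIM-domain adaptor of the Hippo pathway, Nt5dc2 and Bhlhb9 were near the floor at PN3, with 33, 69 and 28 counts over the WT group and 0 over the KO group. Taking 3 counts per group as the floor, they were at least 10.1-fold, 21.1-fold and 8.55-fold lower in KO at PN3. At L2C all of them were expressed in both genotypes, Ajuba for instance at 55.9, 57.1 and 58.8 CPM in WT and 35.3, 33.5 and 60.9 CPM in KO. Bhlhb9 shares exonic positions with Gprasp1 and Gprasp2, and Nt5dc2 with Stab1.

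A p over the limit does not show that an effect was absent. Among the 56 genes, 23 had KO and WT libraries that did not overlap at L2C, and the median KO effect at L2C was 0.30 for the 24 positive and -0.47 for the 32 negative genes. Among the 691 genes that appeared, 102 had groups that did not overlap at PN3. Over all genes tested, the groups did not overlap for 12.9% at PN3 and for 43.6% at L2C. The counts of 23 and 102 are near these shares and are no sign of an effect in these genes.

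The 12 genes with a growing effect of 1 sign comprised 5 higher and 7 lower in KO, listed after their values were seen. Slc7a2, a transporter of cationic amino acids (chromosome 8, 40862396 to 40922308), stood at 199, 176 and 182 CPM in WT and 329.8, 309 and 270.4 in KO at PN3. At L2C, Slc7a2 stood at 27.3, 23.8 and 21.3 CPM in WT and 81.6, 85.1 and 90.1 in KO (interaction 1.12, SE 0.25, edgeR adjusted p = 0.0255). Lypd3, Sdhaf4, Tfap2b and Smco2 were the others with higher levels in KO. Rps7, a protein of the small ribosomal subunit, ranged between 70.7 and 79.5 CPM in WT and 55.6 and 59.2 CPM in KO at PN3, and between 281 and 300.4 CPM in WT and 91.5 and 102 CPM in KO at L2C (interaction -1.22, SE 0.23, edgeR adjusted p = 0.014). Imp3, of the U3 complex of pre-rRNA processing, Chchd2, Idh3b, Mettl23, Snapc5 and 1700029P11Rik were lower in KO as well. Of the 12 fits that left out 1 library, the interaction was called in 3 for Tfap2b and Chchd2 and in 4 for Slc7a2, Sdhaf4, Smco2, Idh3b and Mettl23. It was called in 6 for Rps7 and Lypd3 and in 7 for Imp3 and Snapc5, and 1700029P11Rik was not followed.

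The change between the stages was then compared in each genotype. Over all genes tested, 13040 (61.6%) were called between L2C and PN3 in WT, with 36.2% higher and 25.4% lower at L2C. In KO 11334 (53.6%) were called, 33.5% higher and 20.1% lower. Of the 392 genes with a positive interaction, 321 (81.9%) were lower at L2C than at PN3 in WT. In KO, 120 of these fell as well, 176 were not called and 25 rose. Of the 654 genes with a negative interaction, 498 (76.1%) were higher at L2C in WT. In KO, 260 of these rose as well, 182 were not called and 56 fell. In most of these genes WT changed between the stages, and KO changed less, was not called or went the other way. The interaction is made of the same contrasts, so these counts are descriptions.

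**Figure D4:**
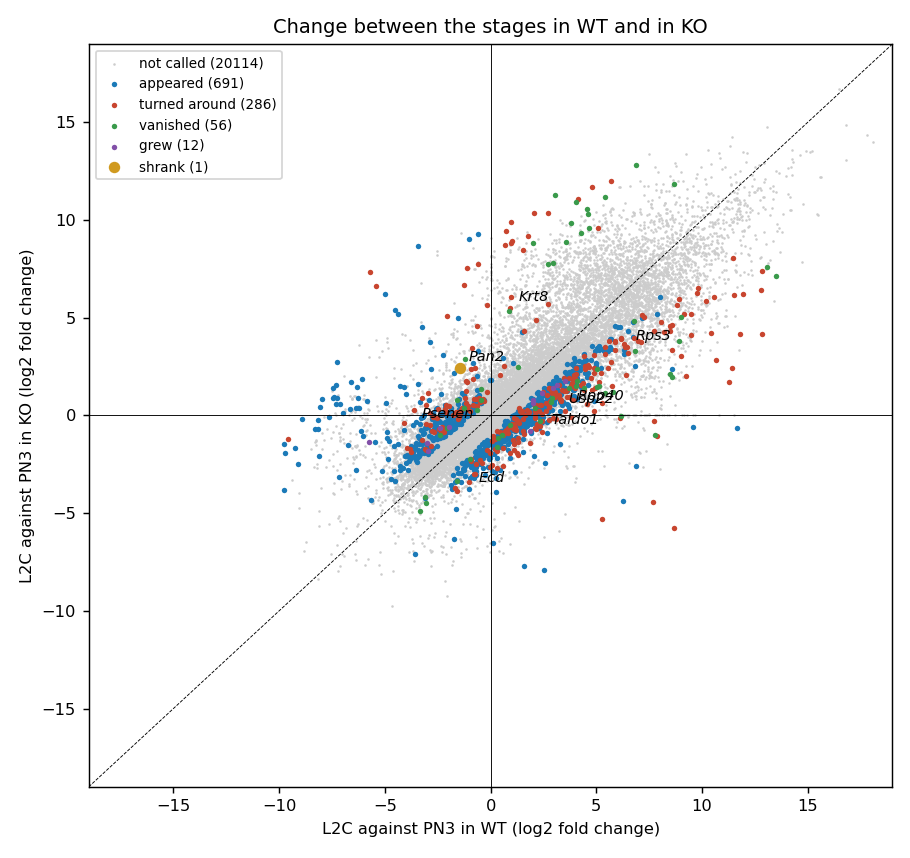
Change between the stages in KO (vertical axis) against that in WT (horizontal axis), log2 fold change of L2C over PN3, 1 point per gene tested and coloured by class; the dashed line marks an equal change. Negative interactions lie below the line, mostly at a rise in WT (498 of 654), and positive ones above it, mostly at a fall in WT (321 of 392).

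A second pattern had a call in KO and none in WT. Among negative genes, 99 (15.1%) were not called between the stages in WT and fell in KO, such as Med12 and Orc1, and among positive genes 46 (11.7%) were not called in WT and rose in KO, such as Krt8. The called genes were well expressed: the median CPM of the highest group was 40.2 for positive and 68.0 for negative genes, against 9.51 over all genes tested. Protein-coding genes were 81.6% of the positive and 91.9% of the negative genes and 73.1% of those tested. On the X chromosome lay 10 positive (2.55%) and 30 negative genes (4.59%), against 3.71% of those tested.

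Genes that act on poly(A) tails were examined first among the functional groups. In the deadenylation list 3 of 28 members were called positive and 1 negative. That is 14.3%, with the deleted gene Pan2 counted in, against 4.94% of all genes tested. The median interaction was -0.12 against 0.09 over all genes tested. The median turned positive with upper quartile scaling (0.10). The positive members were Pan2 itself, Cnot6l and Cnot4, and the negative one was Btg1 (-2.08), a cofactor of deadenylation named after its value was seen. Cnot6l, a catalytic subunit of CCR4-NOT (chromosome 5, 96070333 to 96164171), stood at 387, 515 and 461 CPM in WT and 462, 421 and 396 in KO at PN3. At L2C, Cnot6l stood at 84.1, 87.5 and 96.3 CPM in WT and 246, 226 and 202 in KO. The genotypes overlapped at PN3 and were apart at L2C, with KO higher (interaction 1.42, SE 0.26, edgeR adjusted p = 0.0109). Cnot4, a ubiquitin ligase that associates with CCR4-NOT, ranged between 249 and 259 CPM in WT and 216 and 260.4 CPM in KO at PN3, and between 28.2 and 38.1 CPM in WT and 56.6 and 84.04 CPM in KO at L2C (interaction 1.25, SE 0.29, edgeR adjusted p = 0.0294), and it was called in 5 of the 12 fits that left out 1 library.

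Downstream of deadenylation, 1 of 47 genes of decapping, uridylation and the exosome was called positive and 1 negative (4.26%, median -0.39), a share no higher than the 4.94% of all genes tested. Patl1, a decapping activator, ranged between 33.3 and 34.8 CPM in WT and 32.5 and 36.4 CPM in KO at PN3, and between 14.8 and 20.6 CPM in WT and 39.1 and 47.3 CPM in KO at L2C (interaction 1.20, SE 0.29, edgeR adjusted p = 0.0366). Lsm5, a subunit of the LSM ring that binds deadenylated mRNA and of the one that binds U6, ranged between 12.6 and 20.5 CPM in WT and 34.4 and 42.3 CPM in KO at PN3, and between 11.8 and 12.97 CPM in WT and 5.56 and 10.8 CPM in KO at L2C (interaction -1.78, SE 0.41, edgeR adjusted p = 0.0296). Patl1 was called in 3 and Lsm5 in 5 of the 12 fits that left out 1 library. Of 39 genes that bind or add poly(A), 1 was positive and 3 were negative (10.3%, median -0.14, or 0.10 with upper quartile scaling). Pabpc1l, the poly(A) binding protein of oocytes, was the positive one and ranged between 116 and 125 CPM in WT and 125 and 159 CPM in KO at PN3, and between 7.45 and 9.07 CPM in WT and 19.8 and 20.2 CPM in KO at L2C (interaction 1.09, SE 0.26, edgeR adjusted p = 0.0309). Cstf2t and Nudt21, of the machinery for 3' end cleavage, were negative (-1.81 and -1.87, edgeR adjusted p = 0.013 and 0.0239), as was Cstf1 (-2.23) of the same machinery, named after its value was seen.

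Among maternal oocyte factors, 5 of 68 were positive and 1 was negative (8.82% against 4.94% of all genes tested). The median interaction was 0.65, with 49 of 68 above 0. The count of positive members was 2 or 3 in 9 of the 12 fits that left out 1 library, and 7, 5 and 11 in those without replicate 2 of WT PN3, replicate 2 of KO PN3 or replicate 3 of KO L2C. Nobox, an oocyte transcription factor (chromosome 6, 43303674 to 43309554), stood at 258, 246 and 229 CPM in WT and 284, 257 and 275 in KO at PN3. At L2C, Nobox stood at 10.9, 10.4 and 16.9 CPM in WT and 50.8, 48.3 and 36.6 in KO. It fell in both genotypes and less in KO (interaction 1.68, SE 0.31, edgeR adjusted p = 0.012). Cnot6l, given above, belongs to this list too, and the other positive members, named after their values were seen, were Nlrp4f (1.98), Ooep (1.49), of the subcortical maternal complex, and Oog1 (1.08). Zp3, a zona pellucida glycoprotein (chromosome 5, 135980099 to 135988624), went the other way, at 157, 110.2 and 143 CPM in WT and 204, 163 and 194 in KO at PN3. At L2C, Zp3 stood at 84.3, 85.96 and 84.8 CPM in WT and 33.97, 36.9 and 30.8 in KO (interaction -1.78, SE 0.27, edgeR adjusted p = 0.00577). Its KO libraries lay above the WT libraries at PN3 and below them at L2C.

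Among genes of the minor wave and the 2-cell stage, 2 of 48 were positive and 1 negative (6.25% against 4.94% of all genes tested, median -1.02), and the 3 are given as single genes. Gm4340 had 14 counts over WT PN3 and 0 over KO PN3, at least 4.28-fold lower with 3 counts per group as the floor, and ranged from 10.1 to 10.5 CPM in WT and from 19.2 to 27.3 CPM in KO at L2C. Usp17lc, of a deubiquitinase family with near-identical copies, ranged between 0.437 and 1.06 CPM in WT and 2.43 and 3.19 CPM in KO at PN3, and between 63.4 and 108 CPM in WT and 61.6 and 86.8 CPM in KO at L2C (interaction -1.96, SE 0.46, edgeR adjusted p = 0.0309). Zfp750 is in this list but fell between the stages, from between 362 and 413 CPM in WT at PN3 to between 13.1 and 17.5 CPM in WT at L2C, and was higher in KO at L2C (interaction 1.44, SE 0.34, edgeR adjusted p = 0.0321). Usp17lc was called in 5 and Zfp750 in 4 of the 12 fits that left out 1 library.

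Among transcription factors linked to genome activation, 1 of 41 was positive and 4 were negative (12.2% against 4.94% of all genes tested, median -0.36). Elf3, an ETS-family factor (chromosome 1, 135253575 to 135258568), turned around, at 13.1, 16.6 and 19.3 CPM in WT and 38.2, 47.3 and 32.3 in KO at PN3. At L2C, Elf3 stood at 42.1, 41.4 and 38.4 CPM in WT and 18.2, 16.6 and 18 in KO. At PN3 the KO libraries were the higher ones and at L2C the lower ones (interaction -2.47, SE 0.33, edgeR adjusted p = 0.00312). Nr5a2, a nuclear receptor of early embryos (chromosome 1, 136842571 to 136960448), stood at 24.4, 25.01 and 25.3 CPM in WT and 28.3, 30.2 and 27.8 in KO at PN3. At L2C, Nr5a2 stood at 90.2, 89.2 and 86.4 CPM in WT and 40.3, 43.9 and 39.9 in KO. Its rise between the stages was smaller in KO (interaction -1.31, SE 0.25, edgeR adjusted p = 0.0137), and the call was lost when any of replicates 1 and 2 of the L2C groups was left out. Nfyc, a subunit of the CCAAT-binding factor NF-Y, had an interaction of -1.50 (edgeR adjusted p = 0.0237). Nfyb, of the same factor, was negative (-1.54) and Gata3 positive (1.51), both named after their values were seen.

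The ribosome made up the largest block of called list members. Of all genes tested, 4.94% were called, 1.85% positive and 3.09% negative, and these shares stand beside each list below. Of 88 cytosolic ribosomal protein genes tested, 34 were negative and 0 positive (38.6%), the median interaction was -1.32, and 84 of 88 lay below 0. Of the 34, 25 appeared, 8 turned around and 1 grew. Rpl11, of the large subunit (chromosome 4, 136028265 to 136053428), stood at 63.4, 70.1 and 70.1 CPM in WT and 64.5, 87.3 and 75.3 in KO at PN3. At L2C, Rpl11 stood at 326, 333 and 271 CPM in WT and 94.7, 99.6 and 98.8 in KO. Its libraries overlapped at PN3, and at L2C every KO library lay below every WT library (interaction -1.82, SE 0.26, edgeR adjusted p = 0.00381).

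Rps3, of the small subunit (chromosome 7, 99477896 to 99483738), stood at 4.11, 2.91 and 5.55 CPM in WT and 8.72, 14.1 and 12.3 in KO at PN3. At L2C, Rps3 stood at 392, 392 and 320.3 CPM in WT and 141, 143 and 115 in KO (interaction -2.95, SE 0.36, edgeR adjusted p = 0.00303). Rpsa, also of the small subunit (chromosome 9, 120127689 to 120132369), stood at 0.728, 2.01 and 1.14 CPM in WT and 3.65, 6.67 and 4.66 in KO at PN3. At L2C, Rpsa stood at 378, 376 and 268 CPM in WT and 131, 129 and 153 in KO (interaction -3.28, SE 0.46, edgeR adjusted p = 0.00381). At PN3 the KO libraries of both lay above the WT libraries, at 14.1 CPM or less, and at L2C below them. Ribosomal protein genes have many processed pseudogenes, and the sources used here do not say how shared reads were counted. With 1 library left out, the number of negative genes in this list was 12 and 21 for replicates 1 and 3 of WT PN3 and 19 for replicate 1 of KO PN3. It was 9 and 10 for replicates 1 and 2 of WT L2C, and 9 for either of those of KO L2C. The median of the list stayed between -1.40 and -1.11.

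Ribosome biogenesis followed, with 24 of 119 genes negative and 0 positive (20.2%, median -1.06, 109 of 119 below 0). Besides Polr1e, Ddx47, a helicase of pre-rRNA processing, ranged between 26.7 and 39.5 CPM in WT and 25.8 and 44.8 CPM in KO at PN3, and between 111 and 125 CPM in WT and 30.3 and 40.9 CPM in KO at L2C (interaction -1.98, SE 0.35, edgeR adjusted p = 0.00968). Nob1, the nuclease that matures the 18S rRNA end (chromosome 8, 107412486 to 107425051), stood at 7.46, 7.67 and 10.5 CPM in WT and 9.13, 7.57 and 8.85 in KO at PN3. At L2C, Nob1 stood at 125, 139 and 104 CPM in WT and 39.3, 37.3 and 23.5 in KO. It rose in both genotypes and less in KO (interaction -1.87, SE 0.35, edgeR adjusted p = 0.0135). With 1 library left out, the count was 7 and 14 for replicates 1 and 3 of WT PN3 and 11 and 9 for those of KO PN3. It was 2 and 1 for replicates 1 and 2 of WT L2C and 4 and 3 for those of KO L2C, and the median stayed between -1.08 and -0.94.

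Translation factors gave 10 negative and 0 positive of 52 (19.2%, median -0.53). Eif3l, a subunit of the initiation factor eIF3 (chromosome 15, 79075179 to 79094405), stood at 9.204, 8.67 and 12.2 CPM in WT and 15.4, 17.8 and 16.7 in KO at PN3. At L2C, Eif3l stood at 76.9, 78.6 and 48.7 CPM in WT and 21.2, 28.7 and 18 in KO (interaction -2.31, SE 0.38, edgeR adjusted p = 0.00731). Eif3m, of the same complex, ranged between 51.04 and 61.4 CPM in WT and 50.9 and 67.9 CPM in KO at PN3, and between 84.7 and 123 CPM in WT and 23.8 and 40.1 CPM in KO at L2C (interaction -1.71, SE 0.34, edgeR adjusted p = 0.0172). Eif2b4, of the exchange factor eIF2B, had an interaction of -1.42 (edgeR adjusted p = 0.0143). Eif3l turned around, while Eif3m and Eif2b4 overlapped at PN3 and were lower in KO at L2C.

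The spliceosome list gave 15 negative and 0 positive of 75 (20%, median -0.75), Dhx8 and Cdc5l among them. Sf3b6, of the U2 particle component SF3b (chromosome 12, 4817544 to 4827659), stood at 11.1, 7.88 and 13.8 CPM in WT and 34.2, 22.4 and 30.7 in KO at PN3. At L2C, Sf3b6 stood at 169.8, 179 and 138 CPM in WT and 59.04, 67.5 and 24.4 in KO. The KO libraries were the higher ones at PN3 and the lower ones at L2C, and the third KO library at L2C, rich in ribosomal RNA, was the lowest (interaction -3.11, SE 0.49, edgeR adjusted p = 0.00655). The proteasome list gave 10 negative and 0 positive of 48 (20.8%, median -0.74). Psmb5, the catalytic subunit with chymotrypsin-like activity (chromosome 14, 54614119 to 54618022), stood at 3.56, 3.44 and 3.32 CPM in WT and 4.79, 7.91 and 5.28 in KO at PN3. At L2C, Psmb5 stood at 71.4, 69.9 and 70.9 CPM in WT and 15.99, 20.6 and 19.6 in KO (interaction -2.71, SE 0.34, edgeR adjusted p = 0.00312). Psmd7 and Psma4 had interactions of -2.02 and -1.96 (edgeR adjusted p = 0.00564 and 0.00655).

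Of 77 mitochondrial ribosomal protein genes 10 were negative and 0 positive (13%, median -0.59, 52 below and 25 above 0). Of 80 nuclear oxidative phosphorylation genes 6 were negative and 0 positive (7.5%, median -0.61, 60 below and 20 above 0). That share is not far from the 4.94% called of all genes tested. Mrpl22 (chromosome 11, 58171661 to 58179565), of the large mitochondrial subunit, stood at 23.97, 25.5 and 25.6 CPM in WT and 36.8, 37.6 and 36.3 in KO at PN3. At L2C, Mrpl22 stood at 122, 118 and 90.7 CPM in WT and 50.4, 44.2 and 34.1 in KO (interaction -1.92, SE 0.29, edgeR adjusted p = 0.00569). Ndufb7, of respiratory complex I, ranged between 4.97 and 8.53 CPM in WT and 6.004 and 7.74 CPM in KO at PN3, and between 35.7 and 36.4 CPM in WT and 8.22 and 10.2 CPM in KO at L2C (interaction -1.96, SE 0.38, edgeR adjusted p = 0.0152). The KO libraries of Mrpl22 lay above the WT libraries at PN3 and below them at L2C, whereas the PN3 libraries of Ndufb7 overlapped. Of the 13 mRNAs encoded by the mitochondrial genome 0 were called, 0 in each direction, with a median of 0.06, or -0.05 with DESeq2 size factors. The counts of these lists, too, depended on single libraries. Over the 12 fits that left out 1 library they ran from 1 to 10 negative genes for translation factors, 5 to 15 for the spliceosome, 4 to 11 for the proteasome, 4 to 10 for mitochondrial ribosomal proteins and 2 to 8 for oxidative phosphorylation. In each list the count without WT PN3 replicate 1, without KO PN3 replicate 1 or 3, or without replicate 1 or 2 of either L2C group was below the count over all libraries, and the medians stayed below 0. Without the libraries rich in ribosomal RNA these lists also held positive genes, 8 of translation factors, 7 of the spliceosome, 8 of the proteasome, 10 of mitochondrial ribosomal proteins and 7 of oxidative phosphorylation, against 21, 40, 22, 28 and 29 negative ones. The cytosolic ribosomal protein and ribosome biogenesis lists held 1 positive gene each there, against 67 and 81 negative ones.

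**Figure D5:**
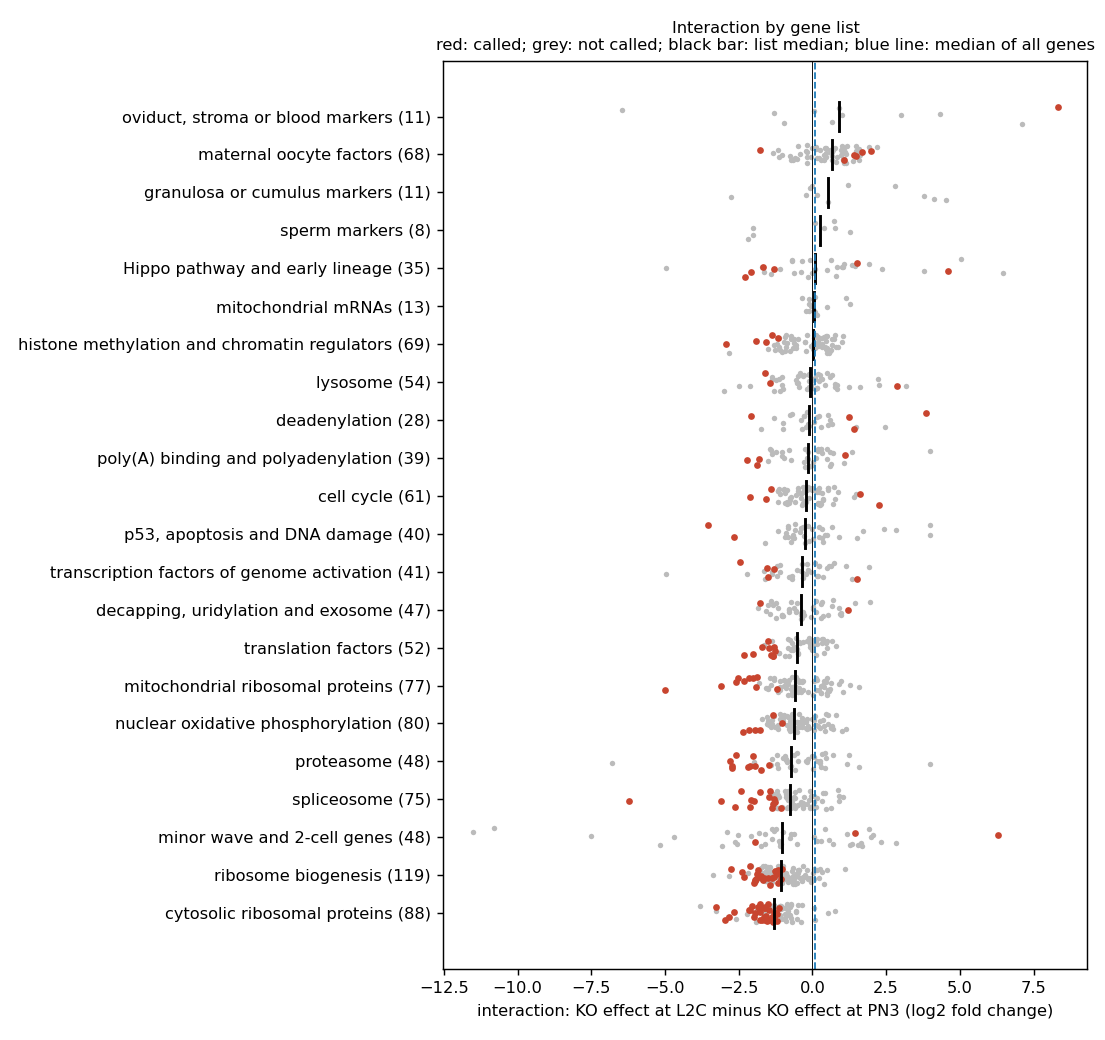
Interaction (horizontal axis, log2 fold change) of each tested member of 22 gene lists (rows, number tested in parentheses); red points were called, grey points were not, black bars mark the list median and the blue line the median of all genes tested (0.09). The lists of cytosolic ribosomal proteins, ribosome biogenesis, the spliceosome and the proteasome have medians of -0.74 or below and called members on the negative side only. Maternal oocyte factors have a median of 0.65.

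The other lists held fewer called members. Cell cycle genes gave 2 positive and 3 negative of 61 (8.2% against 4.94% of all genes tested). Their median was -0.23, or 0.0017 with upper quartile scaling. Orc1, of the origin recognition complex (chromosome 4, 108579423 to 108614833), stood at 61.7, 37.1 and 50.5 CPM in WT and 64.8, 44.8 and 67.9 in KO at PN3. At L2C, Orc1 stood at 52.9, 59.8 and 53.2 CPM in WT and 15.6, 16.4 and 13.6 in KO. Its change between the stages was not called in WT, and in KO it fell (interaction -2.11, SE 0.34, edgeR adjusted p = 0.00655). Bub1b, a kinase-like protein of the spindle checkpoint (chromosome 2, 118598211 to 118641591), stood at 176, 279.9 and 213 CPM in WT and 585, 496 and 591 in KO at PN3. At L2C, Bub1b stood at 27.3, 26.2 and 25.9 CPM in WT and 22.2, 23.1 and 30.4 in KO. Its KO effect was 1.32 at PN3 (edgeR adjusted p = 0.0315) and -0.07 at L2C (SE 0.21), and the interaction (-1.39, edgeR adjusted p = 0.0218) was called in 4 of the 12 fits that left out 1 library. Cdc20 (-1.58), an activator of the anaphase-promoting complex, and the kinase Cdk6 (1.62) were the other called members, named after their values were seen.

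Of 35 genes of the Hippo pathway and early lineages 2 were positive and 4 negative (17.1%, median 0.08, or -0.02 with DESeq2 size factors), among them Krt8, Dppa5a and Mob1a, a kinase adaptor of the pathway (-1.67, edgeR adjusted p = 0.0163). The others, named after their values were seen, were Amotl1 (-2.28), Stk4 (-1.31), the MST1 kinase, and Gata3. Of 69 chromatin regulators 0 were positive and 5 negative (7.25% against 4.94% of all genes tested). Their median was 0.02, or -0.08 with DESeq2 size factors. Kdm5b, an H3K4 demethylase (chromosome 1, 134560171 to 134635285), stood at 8.15, 7.03 and 6.91 CPM in WT and 17.9, 9.42 and 15.5 in KO at PN3. At L2C, Kdm5b stood at 299, 287 and 347 CPM in WT and 139.7, 139 and 198 in KO (interaction -1.92, SE 0.35, edgeR adjusted p = 0.0112). It rose steeply in both genotypes, from a higher start and to a lower end in KO. Kat8, a histone acetyltransferase, and Setd2, an H3K36 methyltransferase, had interactions of -1.56 and -1.18 (edgeR adjusted p = 0.0179 and 0.0237), and Kdm3a (-1.38) and Prdm9 (-2.91) completed the 5, named after their values were seen.

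Lysosomal genes gave 1 positive and 2 negative of 54 (5.56%, median -0.07, or 0.16 with upper quartile scaling), a share near that of all genes. Tpp1, a lysosomal peptidase (chromosome 7, 105744811 to 105752235), stood at 18.1, 13.9 and 22.2 CPM in WT and 20.2, 20.1 and 28.7 in KO at PN3. At L2C, Tpp1 stood at 2.41, 1.804 and 3.87 CPM in WT and 31.6, 32.3 and 12.1 in KO (interaction 2.88, SE 0.57, edgeR adjusted p = 0.0162). Ctsb, a cathepsin, went the other way (-1.43, edgeR adjusted p = 0.0225), as did Psap (-1.59, edgeR adjusted p = 0.0445). In the list of p53, apoptosis and DNA damage 0 of 40 were positive and 2 negative (5%, median -0.27). That share is near the 4.94% of all genes tested. The 2 were the cell death genes Bid and Pmaip1, which were called in 2 and 1 of the 12 fits that left out 1 library. Among markers of other cells, 0 of 11 granulosa or cumulus genes and 0 of 8 sperm genes were called. Acta2, a smooth muscle actin and 1 of 11 markers of oviduct, stroma or blood, was called positive with 0 counts in WT L2C and 52 over KO L2C, at least 18.7-fold higher with a group floor of 3 counts.

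Calls of single list members also depended on single libraries. Of the 12 fits that left out 1 library, Pabpc1l and Nfyc were called in 4, Nudt21, Ctsb, Kat8, Setd2 and Acta2 in 5, Psap in 3, Mob1a in 6, Ndufb7 in 7, and Tpp1 and Eif2b4 in 8. Ddx47 and Eif3m were called in 9, Nob1 and Kdm5b in 10 and Cstf2t in 11. For each of these 17 genes at least 1 of the lost calls fell to the loss of replicate 1 or 2 of an L2C group. Exonic positions are shared by Cdc5l with B230354K17Rik, Elf3 with Gm26642, Orc1 with Gm12743, Eif3m with Ccdc73, Eif2b4 with Snx17, Rps3 with Snord15b, Rpsa with Gm24044, Psmb5 with Mir686, Psma4 with AY074887, Kat8 with Prss8, Ctsb with Fdft1, Bid with Bcl2l13 and Tmem159 with 4930560O18Rik.

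Promoters of the called genes were searched for 9 short motifs on both strands. Promoters of 300 bases, 250 before and 50 after the start, came from RefSeq (GRCm38.p6) and matched 12469 of 15524 protein-coding genes tested (80.3%), 261 of 322 positive (81.1%) and 493 of 606 negative genes (81.4%), some with several starts. The motif CCGGAAG, the core of sites bound by ETS-family factors, was found in 149 of 572 promoters of negative genes (26.0%) and 38 of 337 promoters of positive genes (11.3%). The share was 14.6% over all promoters of the coding genes tested and 8.86% over the 32851 promoters of the table. Among genes of at least 10 CPM that were not called for the interaction, it was 18.6% for those that rose between the stages in WT and 16.1% for those that fell. A match is a description of the letters and not a site.

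The 100 bases before the RefSeq start are printed 5' to 3' for 6 negative genes named above that hold the motif in that stretch. Taldo1 and Ttk, a negative and a positive gene that do not hold it, follow. All were chosen after their values were seen. The RefSeq start can differ from the gene coordinates given above. By those coordinates the windows of Sf3b6, Eif3l and Mrpl22 reach into the gene, and that of Taldo1 ends short of it. Capitals mark CCGGAAG or its reverse complement CTTCCGG.
Sf3b6 (chr12:4817508-4817607, plus strand): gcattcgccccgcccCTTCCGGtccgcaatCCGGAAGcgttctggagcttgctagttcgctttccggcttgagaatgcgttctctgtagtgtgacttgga
Eif3m (chr2:105017028-105017127, minus strand): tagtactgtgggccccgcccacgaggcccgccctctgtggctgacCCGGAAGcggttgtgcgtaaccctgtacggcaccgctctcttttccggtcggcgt
Eif3l (chr15:79075123-79075222, plus strand): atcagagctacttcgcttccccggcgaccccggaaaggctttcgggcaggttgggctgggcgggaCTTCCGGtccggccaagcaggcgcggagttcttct
Mrpl22 (chr11:58171564-58171663, plus strand): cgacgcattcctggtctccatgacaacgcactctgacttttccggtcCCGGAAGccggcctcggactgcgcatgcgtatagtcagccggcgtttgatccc
Ndufb7 (chr8:83566658-83566757, plus strand): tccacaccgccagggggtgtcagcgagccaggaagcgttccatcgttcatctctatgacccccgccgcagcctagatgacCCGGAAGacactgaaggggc
Rps7 (chr12:28635954-28636053, minus strand): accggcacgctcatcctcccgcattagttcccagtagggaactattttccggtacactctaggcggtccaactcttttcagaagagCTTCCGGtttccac
Taldo1 (chr7:141392060-141392159, plus strand): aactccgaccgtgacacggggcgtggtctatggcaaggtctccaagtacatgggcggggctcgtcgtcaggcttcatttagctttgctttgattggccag
Ttk (chr9:83834589-83834688, plus strand): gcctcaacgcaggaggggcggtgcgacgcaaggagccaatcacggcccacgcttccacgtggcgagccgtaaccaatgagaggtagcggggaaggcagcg

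Sf3b6 holds the motif on both strands, and the position of the motif differs among the 6 genes. The other 8 motifs differed less in absolute share between negative and positive genes. CCAAT, the core bound by NF-Y, was found in 39.7% and 31.2% against 37.9% of all promoters of the coding genes tested. It was found in 40.8% for genes of at least 10 CPM that were not called and rose in WT. The share of CCAAT in negative genes was thus near that of other genes. The NRF1 motif was found in 12.1% and 6.53% against 8.37%, and CACGTG, the E-box, in 15.2% and 10.7% against 9.24%. TCACGTGA, which contains that E-box, was found in 3.15% and 2.08% against 1.54% of all those tested. The YY1 motif was found in 2.62% and 0.297% against 1.18%, and TATAAA in 8.57% and 7.42% against 8.62%. GGGGCGGGG, the Sp1 box, was found in 17.1% and 21.1% against 19.2%, and GGATTA, bound by paired-like homeodomains, in 5.24% and 6.23% against 6.01%.

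Elements that act on tails through the 3' UTR gave similar shares. A 3' UTR of at least 50 bases was taken from GENCODE M21 for 14817 genes tested, 315 positive and 569 negative genes. The cytoplasmic polyadenylation element (TTTTAT or TTTTAAT) was found in 54.9% of positive, 55.4% of negative and 57.6% of all of these genes. The AU-rich element TATTTAT was found in 21.3%, 23.4% and 26.9%, and the Pumilio motif TGTANATA in 24.4%, 20.9% and 23.4%. The median 3' UTR length was 764 bases for positive and 700 for negative genes against 924 over all, and per kilobase the cytoplasmic polyadenylation element occurred 1.20, 1.31 and 1.31 times.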

How the data were processed

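Poly(A) RNA of 12 embryo libraries was primed with oligo(dT) and sequenced by Smart-seq2. The authors deposited raw read counts per gene; the submitters' processing notes name Trim Galore 0.6.7, STAR 2.7.10a, featureCounts 2.0.2, DESeq2 and mm10. The strand setting and the treatment of reads with several matches are not stated, which bears on overlapping genes and copies.

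The counts were analysed with edgeR 4.0.16 in R 4.3.3 (expression filter, TMM scaling, robust quasi-likelihood fit with 1 mean per group over all 12 libraries, Benjamini-Hochberg adjustment over 21160 genes; 34131 genes with low counts were left out). Levels are CPM with TMM scaling, with no correction for length. DESeq2 1.42.0 was an alternative, and so were other scalings, other filters on low counts, a block on the replicate number, leaving out each library, leaving out the 4 libraries rich in ribosomal RNA, and summing the close L2C pairs. The script was tested on simulated counts of independent libraries. These held no stage change, no paired replicates and no close L2C pairs, so the simulation does not bear on how far those features move the calls.

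Replicate numbers come from the labels. Deviations from the group means of same-numbered libraries of a stage correlated at 0.343, 0.698 and 0.515 at PN3 and 0.271, 0.282 and 0.396 at L2C. On these data alone, the alternative fit with a block within stages treated same-numbered libraries of 1 stage as pairs. The fit that gave the reported calls had no block. Replicates 1 and 3 at PN3 and 1 and 2 at L2C were not told apart. Across the stages, same-numbered libraries correlated at 0.165, -0.289 and -0.329 in WT and at 0.314, -0.401 and -0.403 in KO. Only replicate 1 was positive, so the numbers as a set did not pair.

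Named genes were Pan2 and, among called genes with a named symbol and 10 CPM or more as the highest group mean, those of lowest interaction p for each sign: 6 that appeared, 4 that vanished, 4 that turned around and 2 that grew or shrank, with up to 3 called members of each list. Other genes are said to be chosen after their values were seen. The members and lists were chosen with earlier results of these data known.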

Additional observations from a re-analysis of the deposited data

Results flagged for a closer look

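The interaction is itself a test of whether the KO effect differs between the stages, so all 1046 called genes qualify. Pan2 and the genes named for each class are listed here by their interactions on the log2 scale, each with an edgeR adjusted p under the threshold. All of those listed, Pan2 (3.86) included, lost their call when the close L2C pairs were summed.

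Positive interactions of effects that appeared at L2C were those of Grm4 (2.36), Samd10 (2.35), Gcc2 (2.56), Psenen (3.18), Sytl4 (1.93) and Crmp1 (5.21). Positive ones of effects that vanished were those of Gipc2 (1.41) and, as fitted values only, Nt5dc2 (8.21), Bhlhb9 (5.74) and Ajuba (5.95). These 3 genes had 0 counts in KO PN3, so their fitted values depend on the prior count and are neither sizes nor bounds. Positive interactions of effects that turned around were those of Krt8 (4.60), Car9 (2.59), Igfbp7 (3.91) and Ttk (2.25), and of an effect that grew that of Slc7a2 (1.12).

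Negative interactions of effects that appeared were those of Ecd (-2.76), Usp22 (-3.02), Rpp40 (-3.30), Ccdc124 (-1.92), Med12 (-3.48) and Polr1e (-2.75). Negative ones of effects that vanished were those of Cdc5l (-6.20), Efna1 (-2.62), Gli2 (-1.76) and Tpm3-rs7 (-3.59), of effects that turned around those of Taldo1 (-3.27), Dhx8 (-2.62), Uspl1 (-2.29) and Abt1 (-2.74), and of effects that grew those of Rps7 (-1.22) and Imp3 (-1.36).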

How the results depend on the processing

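The sign of the interaction was kept by each of the 1046 genes in all 22 alternative fits in which it was tested, but the counts moved. The kept sign was nearly fixed by the choice of genes from the same libraries. Of the 90 genes followed singly (those named by the rule, called at both stages or growing), 52 were called in each of the 12 fits that left out 1 library. Upper quartile scaling gave 695 positive genes and the stricter filter 651. DESeq2 called 2741 genes (989 positive, 1752 negative, 1875 appeared, 284 vanished, 520 turned around). The replicate block over all groups gave 641 (205 positive, 407 appeared, 26 vanished). The replicate block within stages, which treated same-numbered libraries of 1 stage as pairs, gave 3772 (1718 positive, 2054 negative, 2355 appeared, 303 vanished, 910 turned around). Under the block within stages 0 of the 90 genes lost their call. Without the libraries rich in ribosomal RNA 6057 genes were called (3336 positive, 2721 negative, 3478 appeared, 634 vanished, 1468 turned around). With the close L2C pairs summed 0 were called in either direction or any class (3049 at an unadjusted p under 0.05), and the interaction of Pan2 was 4.07 (edgeR adjusted p = 0.0698). With both changes, chosen after seeing the data, 2649 were called (1162 positive, 1487 negative, 1558 appeared, 244 vanished, 724 turned around), where the lone L2C sample of a genotype is assumed to vary like the PN3 groups. Leaving out 1 library gave 259 to 1283 called genes, 90 to 570 positive, 169 to 713 negative, 155 to 828 appeared, 10 to 75 vanished, 91 to 358 turned around, and 3.42 to 4.41 for Pan2, which was called each time. The cause of these differences was not tested. Genes with few counts at PN3 have wide errors, and fitted values against 0 counts depend on the prior count.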
